A study of Mus musculus with 20 samples.

Results

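Small nucleolar RNAs (snoRNAs) are short non-coding RNAs that guide chemical modification and processing of ribosomal RNA in the nucleolus. Box C/D snoRNAs, named Snord, guide 2'-O-methylation in a particle with the methyltransferase fibrillarin (Fbl), and box H/ACA snoRNAs, named Snora, guide pseudouridylation with the pseudouridine synthase dyskerin (Dkc1). Most snoRNAs of mammals are cut from introns of host genes, many of which encode ribosomal proteins or are themselves non-coding.

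The genes described here are those whose symbol begins with Snora or Snord and a digit, taken from transcript clusters that the array annotation paired with that symbol alone. A transcript cluster is the set of probes that the array reads as 1 gene. The rule gave 56 of 28853 transcript clusters, standing for 51 genes. Of these, 33 clusters (31 genes) were box C/D and 23 clusters (20 genes) were box H/ACA. Both clusters of Snord118 held identical values on every array, as did both of Snora30, and the paired clusters of Snora21, Snora3 and Snord58b differed by at most 0.13 on the log2 scale. A further 41 clusters carry a snoRNA symbol among several symbols and are not counted. The tandem snoRNAs of the imprinted brain-expressed loci (Snord115, Snord116 and their kin) have no cluster of their own among the 56.

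RNA came from the amygdala and hippocampus of male C57BL/6 mice aged 2 mo, either wild type (WT) or double knockout (DKO) for the Ca2+-stimulated adenylyl cyclases AC1 and AC8, genes Adcy1 and Adcy8. Contextual fear (CF) training lasted 5 min and held a 0.7 mA shock of 2 s. Baseline mice were taken 5 min before it, 3 further sets at the times named 0 hr, 1 hr and 48 hr, and a last set at 1 wk. The sources differ on that last set: the methods count 1 wk from training, with a CF testing trial before collection, while the series description counts it from the testing trial. Each of the 20 arrays held pooled RNA of 5 to 10 mice, and each combination of region, genotype and time had a single array, so no condition had a replicate of its own. Groups of arrays therefore served as replicates: the 5 time points of a genotype, or the 4 groups of region and genotype at a time point. The matings behind the DKO animals were held on doxycycline, and a tetop-AC8 or a CaMKII-tTA transgene could be present in them, and the WT animals came from other litters. Whether both regions were taken from the same mice is not stated. A p-value here measures only the spread between these arrays, and fewer cells of a type and less RNA per cell cannot be told apart in such tissue.

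The genotype labels were checked on the disrupted genes. Adcy8 lay between 6.94 and 7.26 in the WT amygdala and between 5.46 and 5.89 in the DKO amygdala, and between 7.14 and 7.66 against 5.22 and 5.79 in the hippocampus. Adcy1 ran from 7.97 to 8.38 in the WT amygdala and from 7.51 to 7.77 in the DKO amygdala. In the hippocampus it ran from 9.04 to 9.53 in WT and from 7.67 to 7.80 in DKO. No DKO array overlapped a WT array of its region for either gene. All values are log2 signals. Mean levels of the 8 hippocampal marker genes were 7.95 to 8.20 on hippocampus arrays and 6.62 to 7.16 on amygdala arrays, and those of the 4 amygdala markers were 6.79 to 7.15 and 7.51 to 7.75. The 8 choroid plexus markers averaged 8.35 to 8.78 on the 4 baseline arrays, 7.26 to 8.55 at 0 hr, 7.40 to 8.58 at 1 hr, 7.45 to 8.02 at 48 hr and 7.33 to 8.58 at 1 wk, so this list moved with time (8 of 8 lower at 1 hr, median -0.49, none called by limma), and its part in the changes after training was not tested.

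By the gene table, 54 of the 56 clusters stand for a snoRNA gene that lies within a host gene. The position used is that of the gene, so both clusters of a repeated gene were given the same host. Ribosomal protein genes held 24 of them, the non-coding Gas5, Snhg and similar genes 12, other genes tied to translation (Eef1b2, Eef2, Rack1, Tpt1) 5 and further genes 13. The remaining pair of clusters is Snord118 (U8), which matures large-subunit ribosomal RNA and has no gene around it. Listed lengths ran from 45 to 205 nucleotides. Because a snoRNA lies within an intron, a probe for it cannot tell the mature snoRNA from unspliced RNA of its host.

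Over all 20 arrays the members spread somewhat more than other clusters: the median SD was 0.187 for the 56 clusters and 0.142 for all 28853. Snord14e had the largest SD of the 56 (0.469), followed by Snord82 (0.419), Snord73b (0.331), Snord57 (0.322) and Snord42a (0.301). The smallest was that of Snora2b (0.081). In all, 401 of the 28853 clusters had a larger SD than Snord14e.

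After training, 1 member stood out at each early time point. Snord14e, a copy of the box C/D snoRNA U14 that is needed for processing of 18S ribosomal RNA, lies within Hspa8, the gene of the constitutive heat shock cognate chaperone. In the WT amygdala its log2 signal ran from 9.39 at baseline through 10.32, 10.53 and 9.47 (0, 1 and 48 hr) to 10.10 (1 wk). In the DKO amygdala it ran 9.11, 10.06, 10.42, 9.40 and 10.03 over the same times. Both genotypes thus peaked at 1 hr and were near baseline again at 48 hr. In the WT hippocampus it was 8.89, 10.18, 10.28, 9.68 and 10.14. In the DKO hippocampus it was 9.41, 9.72, 10.45, 9.89 and 10.04. Every array after training was above the baseline array of its own group. The 4 baseline arrays (8.89 to 9.41) did not overlap the 4 arrays of 0 hr (9.72 to 10.32), of 1 hr (10.28 to 10.53) or of 1 wk (10.03 to 10.14), and they overlapped those of 48 hr (9.40 to 9.89).

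Over the 4 groups, Snord14e rose by 0.87 at 0 hr (SE 0.125, 1.83-fold), by 1.22 at 1 hr (SE 0.125, 2.33-fold) and by 0.88 at 1 wk (SE 0.125, 1.84-fold) on the log2 scale, with limma adjusted p of 0.0334, 0.000189 and 0.0293. At 48 hr the difference was 0.41 (SE 0.125, limma adjusted p = 1.00), which did not pass. It was the only cluster of the whole array called at 0 hr, and also the only one called at 1 wk (0.00347% of clusters each time). The changes at every time subtract the same 4 baseline arrays, so the calls of Snord14e are not independent of each other. At 1 hr, 7 of 28853 clusters were called (0.0243%), and Snord14e had the smallest p of them. Egr2, an immediate early transcription factor, was another of the 7 (1.08, SE 0.130, adjusted p = 0.00118). The calls at 0 hr and 1 wk were lost after further quantile normalization (limma adjusted p of 0.0547 and 0.0819) and after median centring (0.111 and 0.0988), while the call at 1 hr held in each alternative run.

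Within the amygdala alone, with the genotypes as replicates, Snord14e was the only cluster called at 1 hr (1.23, SE 0.124, limma adjusted p = 0.0154, 0.00347% of clusters). That call was lost with further quantile normalization (limma adjusted p of 0.0762), with median centring (0.0601) and in 5 of 10 fits without 1 array (up to 0.362, without the WT 1 hr array). Its difference at 1 hr in the hippocampus was nearly as large, at 1.22 (SE 0.175, limma adjusted p = 0.134), but did not pass. The difference between the regions in the 1 hr change was -0.01 (SE 0.232), and that between the genotypes, DKO minus WT, was -0.09 (SE 0.241), each with a limma adjusted p of 1.00. At 0 hr the genotypes differed by -0.49 in the change (SE 0.241, limma adjusted p = 0.923), and the DKO hippocampus had the smallest change of the 4 groups there, from 9.41 to 9.72.

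Further clusters carry the symbol of a Snord14 gene or of Hspa8. A pair of clusters that the annotation gives to Snord14c, Snord14d and Hspa8 together rose by 1.19 (SE 0.168, limma adjusted p = 0.00862) and 1.18 (SE 0.171, adjusted p = 0.0095) at 1 hr. Their differences were 0.89 and 0.91 at 0 hr and 0.78 and 0.76 at 1 wk, with limma adjusted p of 0.274, 0.274, 0.858 and 0.955. Both clusters of the pair gave nearly the same value on every array (8.73 and 8.77 in the WT amygdala at baseline). They are therefore not separate signals. The 3 clusters paired with Hspa8 alone, of which 1 is numbered close to Snord14e and the others are not, differed by 0.09 to 0.13 at 1 hr (SE 0.0737 to 0.0839, unadjusted p of 0.11 to 0.242), and none was called. The list of heat shock chaperones (12 genes, 20 clusters, Hspa8 among them) had no call at 1 hr, with a median of 0.125. The cluster given to Snord14a and Rps13 together differed by -0.09 at 1 hr (SE 0.147, limma adjusted p = 0.886).

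The log2 difference between Snord14e and the nearest cluster of Hspa8 was taken on each array. Relative to baseline, that difference grew by 0.80, 1.12, 0.54 and 0.87 over the 4 later times, in order. These values are a description, since the pair was chosen after the rise of Snord14e had been seen.

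**Figure D1:**
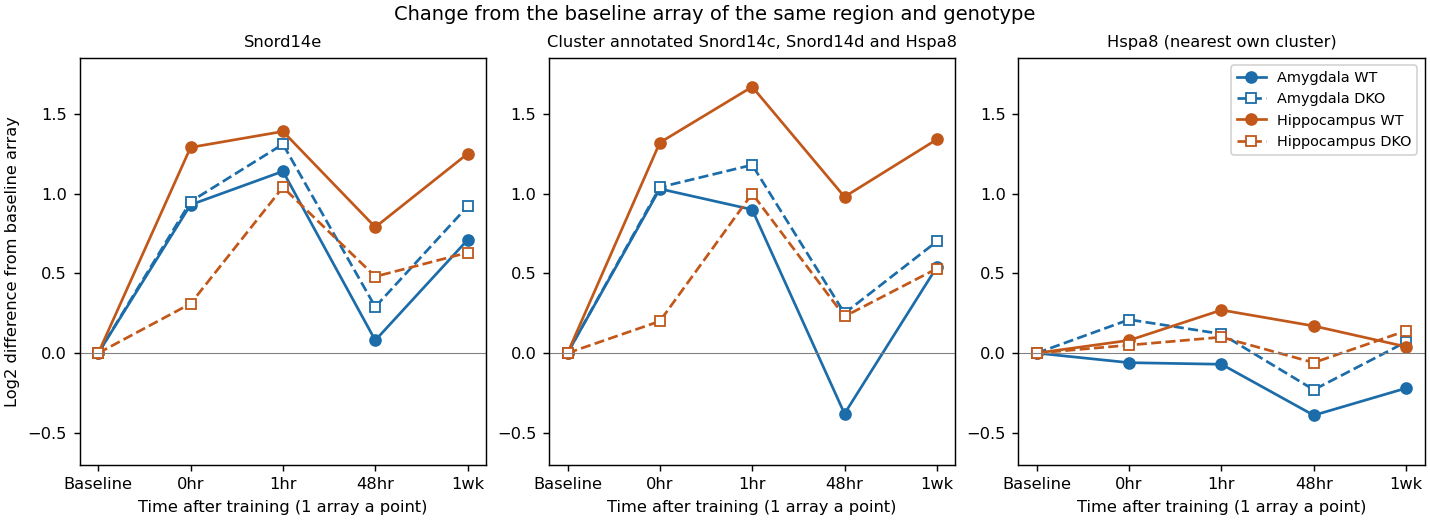
Log2 difference from the baseline array of the same region and genotype (y axis) at each time point (x axis), 1 array a point, for Snord14e, for a cluster annotated with Snord14c, Snord14d and Hspa8, and for the nearest cluster of Hspa8. Snord14e lies above its baseline in all 4 groups at every later time, by 0.09 to 1.39, and the Hspa8 cluster lies between -0.39 and 0.27.

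The other 55 clusters showed no called change at any time over the 4 groups. At 1 hr, 6 of them had an unadjusted limma p under 0.05, which with Snord14e makes 12.5% of the members against 6.16% of all clusters. Snora31, in Tpt1, differed by 0.34 (SE 0.0857, limma adjusted p = 0.428), and Snord104 by 0.22 (SE 0.072, adjusted p = 0.73). Snora23, Snora33 and Snora74a were also higher, by 0.27, 0.25 and 0.18, and Snora62 lower by -0.23, with limma adjusted p of 0.777 to 0.809. Snora23 differed by about as much as its host Ipo7, a nuclear import receptor (0.27, SE 0.0973, against 0.29, SE 0.0996), whereas Tpt1 differed by 0.04 (SE 0.073) and the Snora33 host Rps12 by 0.02 (SE 0.0637).

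**Figure D2:**
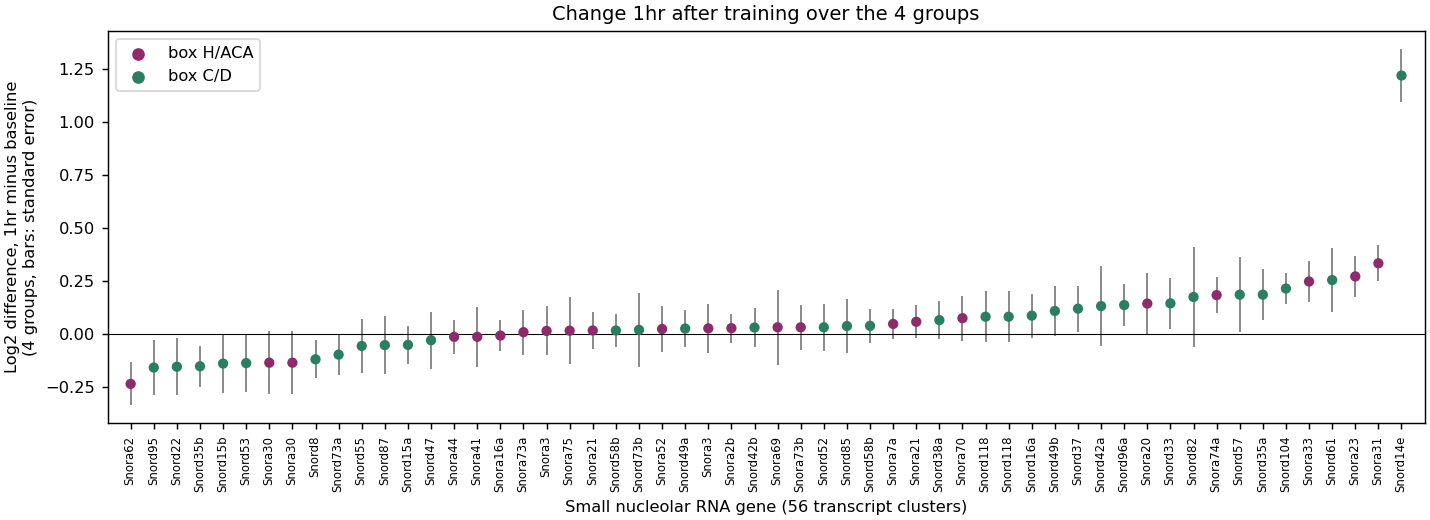
Log2 difference between 1 hr and baseline over the 4 groups (y axis, bars are standard errors of the limma fit) for each of the 56 transcript clusters (x axis), coloured by box class. Snord14e at 1.22 stands apart from the others, which lie between -0.23 and 0.34.

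By their median change the members sat close to the rest of the array. Their share at an unadjusted p under 0.05 was larger than that of all clusters in each change from baseline given here. It was smaller for the genotype difference in the 48 hr change, given below. In order of time, the median difference of the members from baseline was 0.035 (all clusters 0.0263), 0.032 (0.0021), -0.01 (-0.0283) and 0.04 (0.0301). At 1 hr the 33 box C/D clusters had a median of 0.039 and the 23 box H/ACA clusters one of 0.028. At 48 hr limma called 0 members and 0 of all clusters (0.0%), with 4 members at an unadjusted p under 0.05 (7.14%, all clusters 3.59%). In the amygdala at 0 hr, 48 hr and 1 wk and in the hippocampus at all 4 times the count was likewise 0 of 56 against a background of 0.0%, with 1 to 8 members at an unadjusted p under 0.05. In order of time these were 3.57%, 3.57%, 5.36% and 1.79% of the members in the amygdala (all clusters 1.28%, 1.57%, 4.59% and 1.43%). In the hippocampus they were 3.57%, 14.3%, 12.5% and 14.3% (all clusters 2.29%, 5.87%, 5.59% and 4.35%). A trended, robust prior added Snord14e at 0 hr in the amygdala (0.0104% of all clusters), and leaving out clusters below the median level added it at 1 hr in the hippocampus (0.0208%).

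The question whether changes after training depended on AC1 and AC8 was put to the difference between genotypes in the change. Limma called 0 of 56 members at each of the 4 times (0.0% of all clusters each time), and 6, 2, 6 and 14 had an unadjusted p under 0.05. For all clusters the shares at that p were 5.10%, 1.92%, 13.1% and 17.9%, against 10.7%, 3.57%, 10.7% and 25% of the members. The smallest p of a member at 1 wk was that of Snord33, one of the C/D snoRNAs within Rpl13a, which differed by -0.60 (SE 0.176, limma adjusted p = 0.174). An added fit of the difference between the regions in the change also called 0 of 56 at every time against a background of 0.0%.

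With 1 array against 1 baseline array, changes were counted at 1.5-fold and not tested. Across the 16 such comparisons, 17 member genes passed that limit at least once, and Snord14e passed it in 12. Counted as clusters, 18 of the 56 (32.1%) passed at least once, against 2996 of all 28853 (10.4%). Snord42a passed it in 4, Snord73b and Snord82 in 3 each, and the remaining genes in 1 or 2. Signal level was not matched between the shares of 32.1% and 10.4%. Some of these genes, such as Snord61 (3.77 to 4.83) and Snord82 (4.65 to 6.11), lay below the lowest array median of 6.64 throughout. Others, such as Snord14e (8.89 to 10.53), lay above it.

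In the WT amygdala, members lower than the single baseline array outnumbered those higher. At 0 hr, 1 cluster was higher (Snord14e, 0.94; 0.343% of all clusters) and 2 were lower (0.568%), Snord87 by -0.79 and Snord22 by -0.62. At 1 hr, Snord14e (1.14) and Snord61 (0.82) were higher (0.170% of all), and 4 clusters were lower (0.409%), namely both of Snora30 (-0.67), Snord73b (-0.61) and Snord15b (-0.59). At 48 hr none was higher (1.48%) and 2 were lower (1.84%), Snord47 by -0.81 and Snord42a by -0.79. At 1 wk Snord14e was higher by 0.71 (2.28%) and 5 clusters were lower (1.82%), led by both of Snora30 (-0.92) and Snord87 (-0.86). All 4 comparisons share the WT baseline array, which held the highest value of the 20 arrays for Snora30 (9.12), Snord87 (6.83) and Snord47 (8.57). Against the mean of the WT and DKO baseline arrays, the members past 1.5-fold in either direction numbered 2 in place of 6 at 1 hr, 0 in place of 2 at 48 hr and 1 in place of 6 at 1 wk. At 48 hr, further quantile normalization and median centring instead raised the count, as given in the last section.

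In the DKO amygdala 1 member passed downwards in all. At 0 hr, Snord14e (0.95) and Snord73b (0.72) were higher (0.426% of all clusters) and none lower (0.399%). At 1 hr, Snord14e was higher by 1.31 (0.367%) and none lower (0.208%). At 48 hr none was higher (0.354%) and Snora62 was lower by -0.75 (1.07%). At 1 wk, Snord14e (0.92), Snora69 (0.87) and Snord42a (0.62) were higher (0.839%) and none was lower (0.430%).

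In the WT hippocampus no member was lower than baseline by 1.5-fold at any time (0.0832%, 0.139%, 0.152% and 0.111% of all clusters, in order of time). Snord14e was higher by 1.29 at 0 hr (0.236%). At 1 hr it was higher by 1.39, beside Snord82 (0.84) and Snord73b (0.60) (0.970%). At 48 hr, 4 members were higher (1.08%), namely Snord57 (1.08), which lies within the box C/D core protein gene Nop56, Snord14e (0.79), Snora75 (0.73) and Snord42a (0.66). At 1 wk, Snord14e (1.25) and Snord85 (0.65) were higher (0.516%).

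In the DKO hippocampus, Snord82 was higher by 0.69 at 0 hr (0.125%) and none was lower (0.121%). At 1 hr, Snord14e (1.04) and Snora69 (0.59) were higher (0.142%) and none lower (0.253%). At 48 hr no member passed in either direction (0.0866% higher, 0.513% lower). At 1 wk, Snord82 (0.80), Snord35a (0.65) and Snord14e (0.63) were higher (0.527%) and Snord53 was lower by -0.89 (0.406%).

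**Figure D3:**
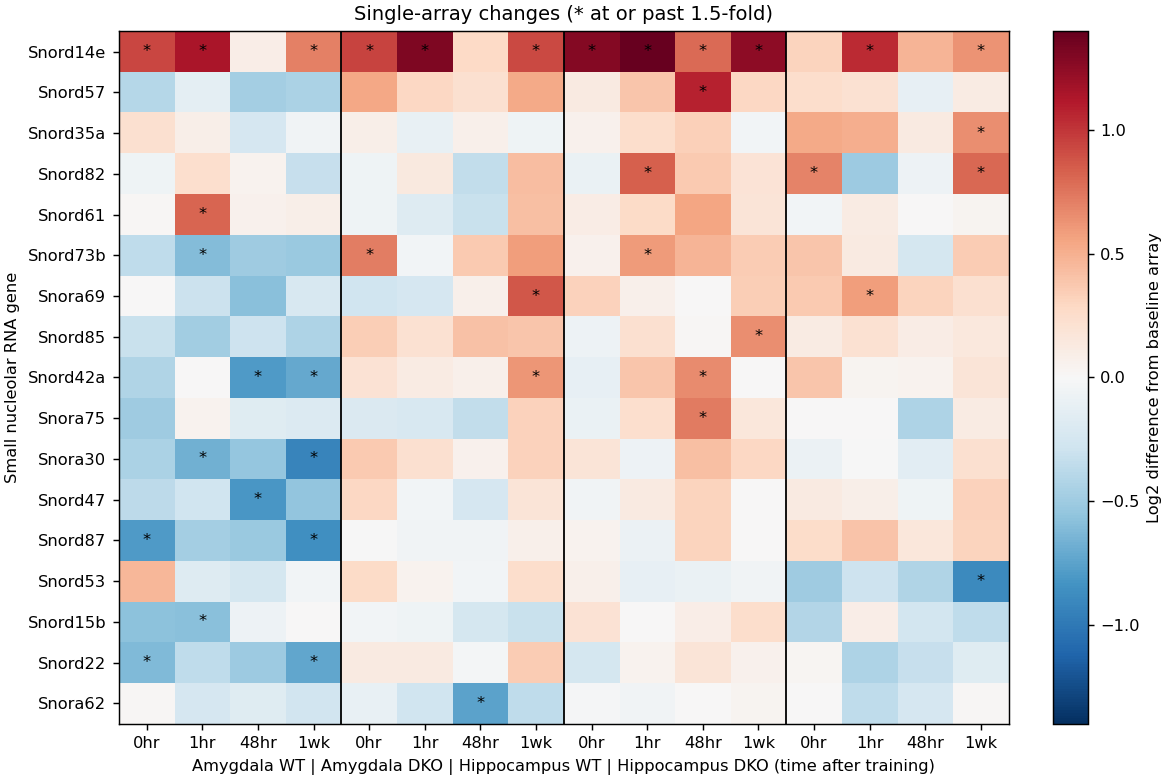
Log2 difference of each array from the baseline array of its region and genotype (colour) for the 17 member genes (y axis) that passed 1.5-fold in at least 1 of 16 comparisons (x axis, grouped by region and genotype). Asterisks mark values at or past 1.5-fold; only the row of Snord14e is high across all 4 groups.

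Between the regions, 5 of the 56 clusters differed, and all 5 were higher in the hippocampus. That is 8.93% of the members, against 17.7% of all clusters called in either direction and 8.95% called higher in the hippocampus, so the share was no larger than the background. The median difference of hippocampus minus amygdala was 0.03 for members and -0.021 for all clusters. The 5 were Snord16a (0.31, SE 0.0663, limma adjusted p = 0.00119), Snord42b (0.21, SE 0.0554, adjusted p = 0.00694), Snord22 (0.27, adjusted p = 0.0208), Snora33 (0.21, SE 0.0661, adjusted p = 0.0249) and Snord87 (0.25, adjusted p = 0.0296). Snord22 (U22) acts in processing of 18S ribosomal RNA.

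On the 10 arrays of each region the values overlapped for each of them. Snord16a ran from 5.25 to 5.60 in the amygdala (median 5.39) and from 5.47 to 6.24 in the hippocampus (median 5.66). Snord42b ran from 5.28 to 5.74 (median 5.53) and from 5.62 to 5.91 (median 5.78). All values of Snord16a and Snord42b lay below the lowest array median of 6.64. Snord22 ran from 7.49 to 8.22 (median 7.67) and from 7.60 to 8.33 (median 7.94). Snora33 ran from 8.21 to 8.59 (median 8.47) and from 8.29 to 8.88 (median 8.63), and Snord87 from 5.93 to 6.83 (median 6.01) and from 6.15 to 6.67 (median 6.35).

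The differences of Snord16a, Snord87, Snord22 and Snora33 were larger in the DKO arrays. Within DKO, Snord16a was higher in the hippocampus by 0.57, Snord87 by 0.52, Snord22 by 0.46 and Snora33 by 0.34, and in WT the differences were 0.06, -0.02, 0.08 and 0.09. Snord42b differed by 0.27 in WT and 0.16 in DKO. Counted separately, limma called 0 members in WT (8.58% of all clusters) and 14 in DKO (19.0%). The difference between the regions in the genotype effect was 0.51 for Snord16a (SE 0.133) and 0.54 for Snord87 (SE 0.161), with a limma adjusted p of 0.241 for each, so it did not pass the threshold. The count over both genotypes was 12 after further quantile normalization (21.9% of all clusters), 8 after median centring (18.3%), 13 at an adjusted p of 0.1 (22.4%) and 4 with time as a block (17.3%).

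**Figure D4:**
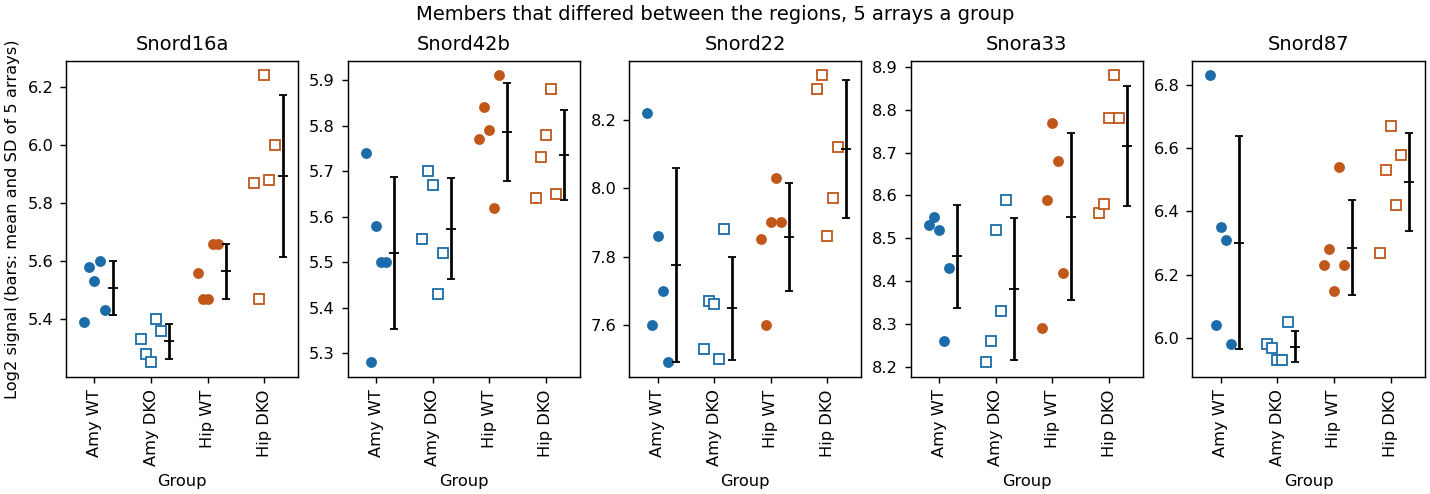
Log2 signal (y axis) of the 5 members that differed between the regions, by group of region and genotype (x axis); points are the 5 arrays of a group and bars are their mean and SD. DKO hippocampus arrays are the highest group for Snord16a, Snord22, Snora33 and Snord87, with means of 5.89, 8.11, 8.72 and 6.49.

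Among the hosts with a cluster of their own, Rpl4, the host of Snord16a, was higher in the hippocampus by 0.13 (SE 0.0416, limma adjusted p = 0.0254), while Rps12, the host of Snora33, differed by -0.01 on its nearest cluster (SE 0.039, adjusted p = 0.90; 0.057 to 0.085 on its others) and Rpl23a, the host of Snord42b, by 0.11 (SE 0.0452, adjusted p = 0.114). Over the 31 member clusters whose host was measured, the sign of member and host was the same in 17 for the region difference and in 19 for the change at 1 hr. For some of them, such as Snord73a and Snord73b in Rps3a1, the host cluster used was numbered far from the member and may be another copy. Marker genes of other cell types also differed between the regions: 5 of 5 oligodendrocyte and 8 of 8 thalamic markers were higher in the hippocampus, and 5 of 6 striatal neuron markers were lower. The oligodendrocyte markers averaged 7.92 to 8.56 on amygdala arrays and 8.42 to 8.84 on hippocampus arrays, the thalamic ones 6.86 to 7.15 and 7.45 to 8.41. Markers also moved with genotype. The thalamic markers averaged 7.45 to 7.97 on WT and 7.96 to 8.41 on DKO hippocampus arrays, where 8 of 8 were higher in DKO (median 0.46), among them Vav3 as the 1 called (0.61, limma adjusted p = 0.00752). The part of these cell types in the results for region and genotype was not tested.

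The transcription starts of these hosts are shown because a snoRNA is made with its host transcript. The RefSeq table (GRCm38.p6) held windows for 31 of the 40 hosts, among them 3 of the 5 concerned here. Each line runs from 25 bases before the annotated start to 25 bases from it onwards, 5' to 3' on the transcribed strand, with the pyrimidine-rich letters TTTTCC in capitals.
Rpl4 (host of Snord16a), chr9:64173362-64173411, plus strand: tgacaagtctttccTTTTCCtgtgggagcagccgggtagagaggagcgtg
Rps12 (host of Snora33), chr10:23787185-23787234, minus strand: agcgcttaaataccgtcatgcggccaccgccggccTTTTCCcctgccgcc
Snhg1 (host of Snord22), chr19:8723462-8723511, plus strand: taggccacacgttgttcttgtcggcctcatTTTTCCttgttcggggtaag
Pyrimidine-rich starts are a known feature of ribosomal protein genes and of many snoRNA hosts. In none of the 3 lines do the capitals span the annotated start. They lie before it in Rpl4 and after it in Rps12 and Snhg1, so they do not show that feature. TTTTCC stood on the transcribed strand of this window in 4 of 31 hosts (12.9%) and in 605 of 27025 genes of the table (2.24%). On either strand it stood in 4 of 31 (12.9%) and in 1155 of 27025 (4.27%). These letters were chosen after the 3 sequences had been read, so the shares are a description and support nothing.

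Between the genotypes, no member passed. With the 5 time points as replicates, limma called 0 of 56 in the amygdala (28 of all clusters, 0.097%) and 0 of 56 in the hippocampus (34 of all, 0.118%), with 6 and 8 members at an unadjusted p under 0.05 (10.7% and 14.3%, against 6.82% and 11.4% of all clusters). The methods' t-test called 0 in each region after adjustment (0.0693% and 0.0901% of all clusters), as did a block for time (0.0832% and 0.118%). The median of DKO minus WT was -0.08 for members and -0.0131 for all clusters in the amygdala, and 0.023 against -0.0176 in the hippocampus. The difference between the regions in the genotype effect was likewise called for 0 of 56 (0.0104% of all clusters).

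The member closest to the limit was Snord82 in the amygdala. It lies within Ncl, the gene of the nucleolar protein nucleolin. Its log2 signal in WT was 5.68, 5.63, 5.92, 5.73 and 5.37 from baseline to 1 wk, and in DKO it was 4.99, 4.94, 5.13, 4.65 and 5.42. The groups overlapped only through the 1 wk arrays. The difference was -0.64 (SE 0.126, limma adjusted p = 0.111), and Ncl itself differed by -0.13 (SE 0.0944), as did the other member within Ncl, Snora75, by -0.08 (SE 0.124). A fit with a trended, robust prior put the adjusted p of Snord82 at 0.0552, inside the limit of 0.1 (0.101% of all clusters). The 6 striatal neuron markers measured were all lower in the DKO amygdala (median -0.38, 6 of 6 at an unadjusted p under 0.05, 0 called by limma), with a mean level of 8.54 to 9.27 in WT and 8.42 to 8.59 in DKO, and their part in the differences of Snord82 and other members was not tested. In the hippocampus Snord82 averaged 5.41 ± 0.37 in WT and 5.49 ± 0.55 in DKO (SD, n = 5 each). Its values on all 20 arrays (4.65 to 6.11) lay below the lowest array median of 6.64.

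Snord57 in Nop56 differed by -0.44 in the amygdala (SE 0.116) and Snord87 by -0.33 (SE 0.125), each with a limma adjusted p of 0.646. In the hippocampus Snord73b (0.35, SE 0.13) and Snord16a (0.33, SE 0.107) were the members with the largest positive differences, and Snora70 in Rpl10 had the largest negative one (-0.24, SE 0.0793), with limma adjusted p of 0.391, 0.359 and 0.359.

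**Figure D5:**
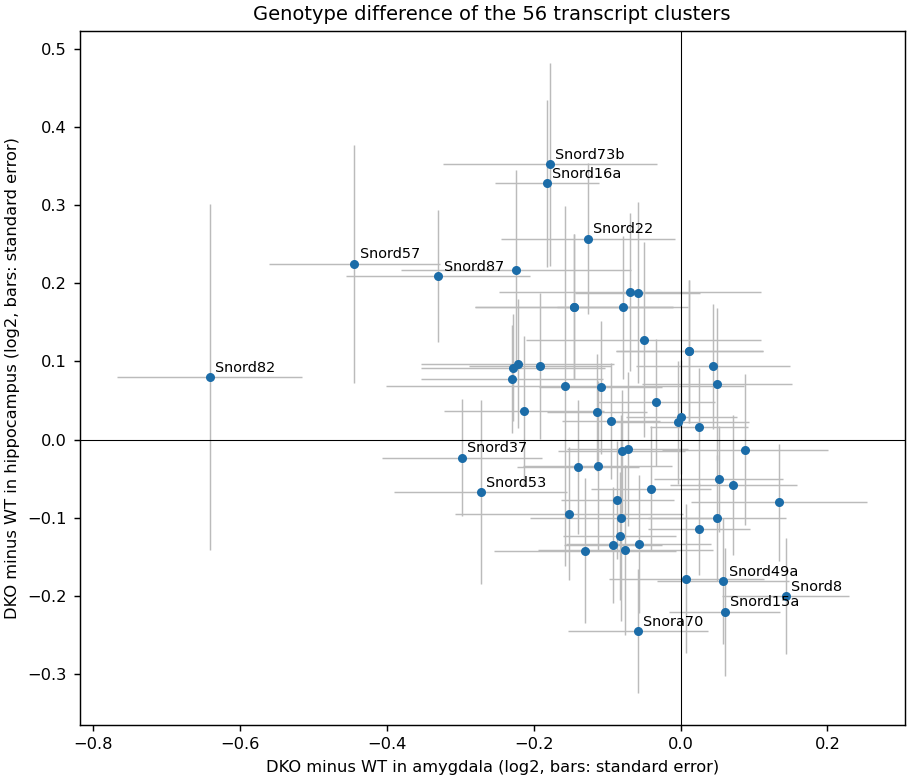
DKO minus WT in the amygdala (x axis) and in the hippocampus (y axis) on the log2 scale for the 56 transcript clusters, bars showing standard errors of the limma fit; genes with an unadjusted p under 0.05 in a region are named. Snord82 lies farthest from 0, at -0.64 in the amygdala.

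The genes of the snoRNA machinery gave few calls, which is no result about them for genotype or time. There, the shares of all clusters called, given above, were also small. Of the box C/D core proteins (4 genes measured by 8 clusters, among them Fbl and Nop56) and the box H/ACA core proteins (4 genes, among them Dkc1), none was called for genotype in either region or for a change at any time over the 4 groups. Their median differences at 1 hr were 0.105 and 0.119. The 14 assembly factors had a median of 0.114 at 1 hr and no call there either, with 3 at an unadjusted p under 0.05. Between the regions, where the share of all clusters called was much larger, Nhp2, a box H/ACA core protein, was lower in the hippocampus by -0.23 (limma adjusted p = 0.000741). The assembly factor Znhit6 was lower there by -0.30 (limma adjusted p = 0.00224).

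Of the genes listed as long non-coding snoRNA hosts (8 genes measured by 14 clusters), 5 clusters were lower and 1 was higher in the hippocampus. These counts are to be read beside the share of all clusters called between the regions, given above. Meg3 (-0.60, limma adjusted p = 6.3e-10) and Rian (-0.61, adjusted p = 2.11e-07), both transcribed from the imprinted Dlk1-Dio3 region, differed most. Snhg11 (-0.37 and -0.24 on its 2 clusters) and Snhg15 (-0.20) were also lower, and Snhg5 was higher by 0.35 (adjusted p = 1.31e-06). The RNA genes of Cajal bodies, which guide modification of spliceosomal RNA, were measured by 4 clusters (3 genes), and none was called in these comparisons.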

How the data were processed

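The authors hybridised labelled RNA to Affymetrix Mouse Gene 1.0 ST arrays, using RNA with a RIN above the quality limit they set, and per the labels processed the scans by RMA in the Affymetrix Expression Console. The deposited values are log2 signals, background-corrected, quantile-normalised and summarised per transcript cluster. Versions and the genome build behind the annotation are not given in the sources used here. The number of arrays limits the precision. Array medians ran from 6.64 to 6.83.

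All 28853 clusters were fitted without a filter by lmFit and eBayes of limma 3.58.1 (R 4.3.3), and p-values were adjusted over the whole array by the method of Benjamini and Hochberg. The limit was an adjusted p of 0.1 for the genotype effect and 0.05 otherwise. Time fits had the group as covariate. Scripts were tested on simulated data. Hosts are genes of the RefSeq table (GRCm38.p6, which matched all 51 genes) whose span holds the member, with no strand given there. Where several genes span a member, the known host was taken. A host's nearest cluster by number stands for it. Named were members past a limit, the 3 largest past 1.5-fold in each direction on single arrays, Snord14 genes, hosts of these and called genes of the lists. The members and lists were chosen with earlier results of these data known. Alternatives were a filter at the median level, further quantile normalisation, median centring, a trended robust prior, another limit, a replicate block, the methods' t-test and leaving out each array. Chosen after seeing the data were the region differences in the changes, fits within each genotype, fits without the 48 hr arrays, the differences of Snord14e from Hspa8 and the motif.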

Additional observations from a re-analysis of the deposited data

Results flagged for a closer look

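Among the 19 named members, 76 groups of 5 arrays were examined for an array far from the other 4. Such an array was found in 2 groups. No chance rate can be set beside this count. Members were named partly for large changes on single arrays, and the 5 arrays of a group are different times. Snord61 in the WT amygdala was 4.83 at 1 hr, with the next highest array at 4.09. Snora75 in the DKO hippocampus was 6.73 at 48 hr, with the next lowest at 7.16.

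In the amygdala, 4 of the 19 named members lay on opposite sides of baseline in the genotypes at all 4 later times, which was not tested as such. The 19 were named partly for large changes from these same baseline arrays. The share of all clusters that meet this rule is not given here, so the count is no result about the members. The mean change was -0.48 in WT and 0.25 in DKO for Snord42a, -0.64 and 0.24 for Snora30, -0.37 and 0.40 for Snord57, and -0.38 and 0.34 for Snord85. Each set of 4 changes shares 1 baseline array, and for all 4 members the WT baseline was higher than the DKO baseline (Snora30, 9.12 and 8.27; Snord57, 6.43 and 5.38).

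The pair of clusters annotated with Snord14c, Snord14d and Hspa8 together is outside the 56, and both gave nearly the same value on every array. They rose at 1 hr by 1.19 (limma adjusted p = 0.00862) and 1.18 (limma adjusted p = 0.0095).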

How the results depend on the processing

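The 1 hr call of Snord14e over the 4 groups held under each alternative run and without each array in turn (0 of 20 lost, adjusted p up to 0.0027, log2 change 1.11 to 1.30). The counts of members called at 0 hr and 1 wk over the 4 groups and at 1 hr in the amygdala went from 1 to 0 with further quantile normalisation and with median centring. Leaving out 1 array gave 0 to 1 for each of these 3, with the call lost in 15 of 20, 11 of 20 and 5 of 10 cases and an adjusted p of at most 0.391, 0.311 and 0.362. The largest adjusted p at 0 hr came without the WT amygdala 0 hr array, at 1 wk without the WT hippocampus 1 wk array, and in the amygdala without the WT 1 hr array. At 1 hr in the hippocampus the count rose from 0 to 1 with the filter, and ran from 0 to 1 without 1 array (1 without either 0 hr array). At 0 hr in the amygdala the trended robust prior gave 1.

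For the region difference the count of 5 became 12 with further quantile normalisation, 8 with median centring, 13 at an adjusted p of 0.1, 0 within WT and 14 within DKO. Without 1 array it ran from 3 (WT hippocampus 48 hr) to 10 (WT amygdala baseline), with 9 without the DKO amygdala 0 hr array. Within WT, Snord87 turned to -0.02. Snora33 and Snord87 each lost the call in 5 of 20 cases. For genotype in the amygdala the count was 1 with the trended robust prior (Snord82) and 0 to 1 without 1 array (1 without either 1 wk array). The genotype difference in the 1 wk change gave 0 to 3, with 3 without the WT hippocampus baseline array.

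With the time point as replicate block, the count of members was 4 for the region difference (Snord87 at an adjusted p of 0.107) and 0 for the genotype effect in each region. Deviations of same-time WT and DKO arrays correlated at -0.42 to 0.20 in the amygdala and -0.13 to 0.23 in the hippocampus. Those of the regions correlated at -0.39 to 0.53, highest in WT at 1 hr. The values varied in sign and do not settle whether arrays of a time point are paired.

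Single-array counts at 1.5-fold moved in 8 of 16 cases when the mean of both baseline arrays of a region was the reference. In the WT amygdala they became 2 at 1 hr (from 6), 0 at 48 hr (from 2) and 1 at 1 wk (from 6), and in the DKO amygdala 1 at 0 hr (from 2) and 4 at 48 hr (from 1). In the WT hippocampus they became 2 at 48 hr (from 4), and in the DKO hippocampus 2 at 0 hr (from 1) and 1 at 48 hr (from 0). Further quantile normalisation gave 8 (WT amygdala, 48 hr), 5 (DKO amygdala, 1 wk, from 3) and 1 (WT hippocampus, 1 wk, from 2). Median centring gave 11 in the WT amygdala at 48 hr, 1 in the WT hippocampus at 1 wk and 2 in the DKO hippocampus at 48 hr. The cause of these moves was not tested.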
